A study of Homo sapiens with 4 samples.

Results

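The HLA class II genes HLA-DRA, HLA-DRB1, HLA-DQA1, HLA-DQB1, HLA-DPA1, HLA-DPB1, HLA-DMA and HLA-DMB, with CD74 and CIITA, are 10 of the 20037 protein-coding genes that were measured for H3K27Ac. The 10 genes were chosen by name, as the genes of antigen presentation on class II molecules and their master regulator. H3K27Ac, acetylation of lysine 27 of histone H3, marks active promoters and enhancers. It was measured by ChIPmentation, in which immunoprecipitated chromatin is tagged by the Tn5 transposase, in MOLM13, an established human acute myeloid leukemia (AML) cell line with a rearranged MLL1 gene. One library came from control cells, labelled with no treatment while the treatment protocol names a DMSO arm. The other came from cells of the same line treated for 16 h with 500 nM of SNDX-50469, an inhibitor of the binding of Menin to MLL1. With 1 library per condition no difference between the conditions has a replicate check, so no test was made, and Wilson 95% intervals cover counting error only.

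Class II molecules are pairs of an alpha and a beta chain that present peptides taken up from outside the cell to CD4+ T cells. HLA-DR, HLA-DQ and HLA-DP are the classical molecules at the cell surface. CD74, the invariant chain, holds their groove closed during transport, and HLA-DM, the product of HLA-DMA and HLA-DMB, exchanges the last fragment of CD74 for a peptide. CIITA is a co-activator that binds no DNA itself. It is recruited by RFX, CREB and NF-Y factors on the X and Y boxes upstream of class II genes, and it is made from alternative promoters used in dendritic cells and macrophages, in B cells, and after interferon gamma. Monocytic cells can carry class II molecules at their surface, and so can AML cells of monocytic kind.

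The deposited lists held 245875 peaks over 224.25 Mb in control and 54061 peaks over 29.379 Mb after SNDX-50469. The lists give no read totals, and they end at unequal heights above unequal backgrounds. The weakest control peak had a fold ratio of 2.66, from a pileup of 4 fragments and a background of 0.877 fragments. The weakest SNDX-50469 peak had a fold ratio of 3.46, from a pileup of 5 and a background of 0.735 fragments. In this ratio 1 is added to both the pileup and the background. Because of this, covered positions were compared between the lists, and the strength of a peak was ranked only within its own list. The kept share states how much of the control covered length, in percent, a SNDX-50469 peak also covered. It was 9.71% for the whole genome, with 10.4% on chromosome 6, 7.90% on chromosome 5 and 9.63% on chromosome 16. All 8 markers of monocytic AML cells had control peaks, with a median of 24266 bp covered within 5 kb of the gene, but so had 6 of 6 B cell and 4 of 4 T cell markers (medians of 7199 and 5389 bp). Of the erythroid markers, KLF1 had 10660 bp, GATA1 324 bp and HBA1 none. Of the epithelial markers, CDH1 had 18346 bp, KRT18 305 bp and EPCAM none. Control peaks were thus not confined to markers of the labelled cell type.

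Promoter sequences (RefSeq, GRCh38.p14) were matched for 8 of the 10 members by gene symbol. HLA-DRA and CIITA had no entry. The 150 bases before the annotated start of HLA-DRB1, HLA-DQB1, HLA-DMA and HLA-DMB are shown because they carry the letters of the X and Y boxes, and because 1 of these promoters lay in a control peak and 3 did not. Each reads 5′ to 3′ on the strand of its gene, which is the minus strand for all 4. Capitals mark matches on the strand of the gene alone. They show the X box core ACNNATG and the Y box letters ATTGG or, where present, the longer CTGATTGG that contains them. Matches on the opposite strand, such as ATTGG in HLA-DMB, are left in small letters.
HLA-DRB1, chr6:32589849-32589998: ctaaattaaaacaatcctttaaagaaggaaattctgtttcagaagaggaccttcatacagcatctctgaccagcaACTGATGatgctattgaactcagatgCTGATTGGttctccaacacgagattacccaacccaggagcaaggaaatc
HLA-DQB1, chr6:32666658-32666807: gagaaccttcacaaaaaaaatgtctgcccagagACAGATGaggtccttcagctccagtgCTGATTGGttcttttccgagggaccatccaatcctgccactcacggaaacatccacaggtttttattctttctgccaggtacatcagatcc
HLA-DMA, chr6:32953098-32953247: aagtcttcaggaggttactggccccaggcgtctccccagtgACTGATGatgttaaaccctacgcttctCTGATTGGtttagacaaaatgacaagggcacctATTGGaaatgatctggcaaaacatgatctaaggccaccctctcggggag
HLA-DMB, chr6:32941029-32941178: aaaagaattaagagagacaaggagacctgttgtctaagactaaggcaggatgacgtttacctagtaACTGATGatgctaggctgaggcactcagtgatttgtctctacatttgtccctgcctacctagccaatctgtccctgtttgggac

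An X box core followed on the same strand by ATTGG, with 15 to 30 bases between them, was found in 3 members, HLA-DRB1, HLA-DQB1 and HLA-DMA. The bases between numbered 22, 22 and 23. Both strands of the 300 bases from 250 before to 50 after each start were searched. This arrangement occurred in 156 of 35116 promoters (0.444%), the X box core in 24.9%, ATTGG in 34.6% and CTGATTGG in 3.97%. HLA-DMB held the X box core on its own strand with ATTGG on the opposite strand. CD74 held both on the opposite strand, and neither of the 2 HLA-DPA1 promoters held any of them. A match of letters is a description and not a bound site.

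None of the 3 member promoters with this arrangement touched a peak of either list. Of all 156 promoters with it, 26.9% touched a control peak and 13.5% a SNDX-50469 peak, beside 40.8% and 17.1% of all promoters. The promoters of HLA-DMB and CD74 lay in control peaks over all 300 bases, and no member promoter touched a SNDX-50469 peak.

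In control cells the acetylation of these genes was split. The regulator CIITA, CD74 and the DM pair were covered over 33.8% to 73.3% of the gene with 5 kb on both sides, and the 6 classical chains over 0% to 9.23%. The median over all protein-coding genes was 7.94%. After SNDX-50469, CD74 had no covered position left, CIITA kept 3.01% of its covered length, HLA-DMA kept 14.7% and HLA-DMB kept 27.9%. Added over the 10 genes, the covered length was 75585 bp in control and 6927 bp after SNDX-50469, of which 6075 bp were kept (8.04%). Neighbouring genes share peaks, and counting each position once gave 73174 bp, 5386 bp and a kept share of 6.44%. CIITA alone held 59.7% of the summed control length, and without it the other 9 genes kept 15.5%. Without HLA-DMA and HLA-DMB the other 8 genes kept 2.50%. By peaks, 2 of 60 control peaks shared at least 1 bp with a SNDX-50469 peak (3.33%, Wilson 95% interval 0.919 to 11.4%). The matching share over all control peaks of the genome is not given here, so whether this count is low cannot be read from it.

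**Figure D1:**
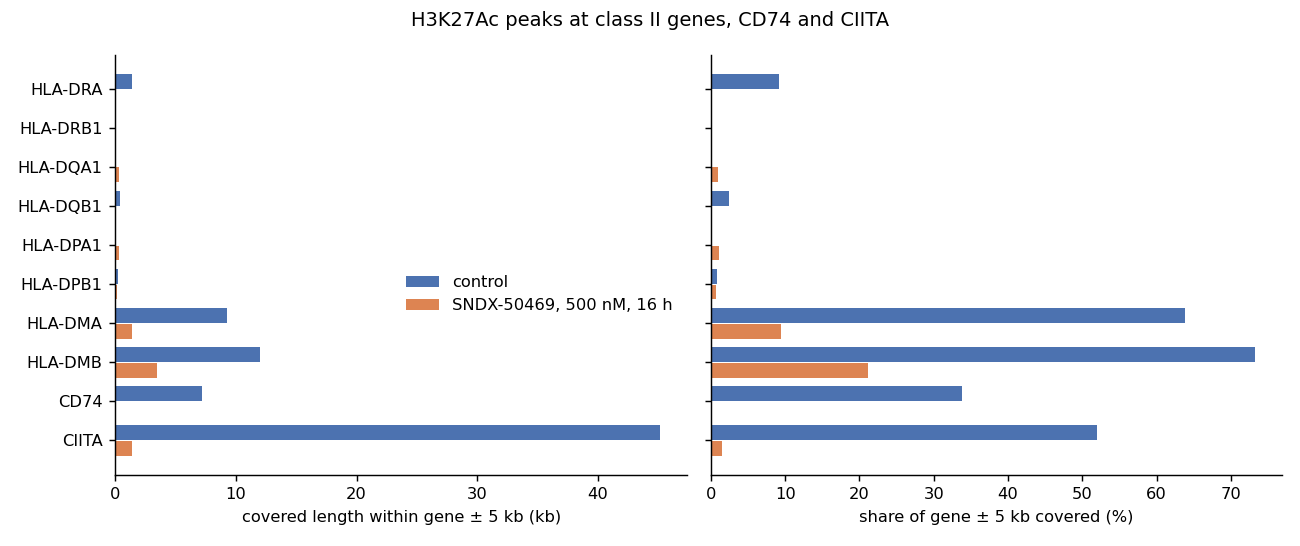
Covered length (left, kb) and covered share (right, %) of each gene with 5 kb on both sides, in the control list (blue bars) and the SNDX-50469 list (orange bars), 1 library each. CIITA had the longest covered length in control (45134 bp), HLA-DMB the highest covered share (73.3%), and the 6 classical chains at the top had little in either list.

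Across all genes, 22% of the 20037 had no control peak in this window, and 3 of the 10 members were among them (HLA-DRB1, HLA-DQA1 and HLA-DPA1). Of the 13356 genes with at least 1 kb covered in control, 55.8% were at least 10-fold shorter after SNDX-50469 and 35.8% kept nothing. Of the 5 members with at least 1 kb, HLA-DRA, CD74 and CIITA were at least 10-fold shorter, and HLA-DRA and CD74 kept nothing. Of the genes with any control peak, 1.84% were longer after treatment, and of the 7 such members none was. These counts lie close to those of all genes, with few members behind them.

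HLA-DRA and HLA-DRB1 encode the chains of HLA-DR. HLA-DRA (chr6:32439887-32445046) had 1400 bp in 2 control peaks and 0 bp after SNDX-50469. Both peaks lay upstream of the gene. The nearer, 1272 bp wide, ended 2710 bp before the 5′ end and ranked 96768 of 245875 by −log10 p, and the farther, 128 bp wide, ranked 15825. HLA-DRB1 (chr6:32578775-32589848) had 0 bp in both lists, and its nearest control peak was 8743 bp away. The bodies of both genes were therefore without a peak in either library.

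The HLA-DQ chains had little more. HLA-DQB1 (chr6:32659467-32666657) had 426 bp in control, in 1 peak 3047 bp upstream at 2.76-fold over background, and 0 bp after SNDX-50469. HLA-DQA1 (chr6:32637406-32655272) had 0 bp in control and 271 bp after SNDX-50469. That peak (chr6:32643536-32643806) lay 6130 bp inside the gene, over annotated exon sequence along its whole length, and ranked 22117 of 54061. HLA-DR and HLA-DQ sequences differ widely between people and have near-identical copies in the region, such as HLA-DRB5 beside HLA-DRB1, and the part that the placing of such reads had in the coverage was not tested.

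The HLA-DP genes had only short peaks, and no covered position was in both lists. HLA-DPB1 (chr6:33075990-33089696) had 184 bp in control and 178 bp after SNDX-50469, with none in common. Its control peak stood at 2.77-fold, near the lowest fold of its list, and ranked 176465 of 245875. HLA-DPA1 (chr6:33064569-33080748), on the opposite strand and overlapping it, had 0 bp in control and 288 bp after SNDX-50469. The SNDX-50469 peak that both share (chr6:33079623-33079800) lay in introns, 948 bp inside HLA-DPA1, and ranked 13850 of 54061. The other SNDX-50469 peak of HLA-DPA1, 110 bp wide, stood at 3.46-fold, the lowest fold of its list. Such peaks absent from control made up 49.2% of all SNDX-50469 peaks on chromosome 6 and 43.0% in the genome, but chromosomes differed. The share was 57.5% on chromosome 8, which held 22664 of the 54061 SNDX-50469 peaks, 51.4% on chromosome 5 and 52.7% on chromosome 13. On the remaining chromosomes it ran from 3.60% to 37.6%. Over the 6 classical chains together, with each position counted once, 2010 bp were covered in control, 559 bp after SNDX-50469, and 0 bp in both.

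The DM genes held most of what was kept, with 77.6% of the members' kept length. HLA-DMB (chr6:32934636-32941028) had 12011 bp in control and 3469 bp after SNDX-50469, with 3354 bp kept. A single control peak of 14594 bp (chr6:32934248-32948841) spanned the whole gene and ended 224 bp inside the neighbouring HLA-DMA. It ranked 1005 of 245875 by width and 13966 by strength, at 4.33-fold over background. In the SNDX-50469 list its place was taken by 6 peaks of 191 to 1363 bp, which together covered 3354 bp of it. The nearest of them to the 5′ end of HLA-DMB (chr6:32940565-32940877) began 151 bp downstream of it. The strongest (chr6:32944120-32945482, rank 6943 of 54061) lay between the 2 genes.

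HLA-DMA (chr6:32948618-32953097) had 9244 bp in control and 1363 bp after SNDX-50469, all of it kept. This kept length was the peak between the 2 genes, past the 3′ end of HLA-DMA. Inside the gene, 2836 bp were covered in control and 0 bp after SNDX-50469. The 5′ end of HLA-DMA lay outside any peak, 461 bp from the nearest control peak, at 3.25-fold and rank 63863 of 245875. The DMA promoter, with the full X and Y arrangement, was thus outside control peaks, and the DMB promoter, without it, was inside one. In GENCODE, 2 further HLA-DMA transcripts start 15347 and 15997 bp upstream, inside the peak of BRD2, and both of these starts were covered in both lists.

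BRD2 encodes a BET protein that reads acetylated histones, and its promoter peak was the strongest of the class II region. In control the peak (chr6:32964869-32974743) was 9875 bp wide at 10.5-fold, rank 169 of 245875. After SNDX-50469 it was 5354 bp wide (chr6:32967855-32973208), rank 13 of 54061. BRD2 kept 5354 of 14885 bp. The control peaks of the DM genes and BRD2 fell into a single stitched region of 54.355 kb when peaks within 12.5 kb were joined, as super enhancer calling does, and it ranked 1102 of 24668 regions, below the point of slope 1 that 892 regions passed. With peaks within 5 kb joined, the same region ranked 954 of 45650 and was above that point.

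**Figure D2:**
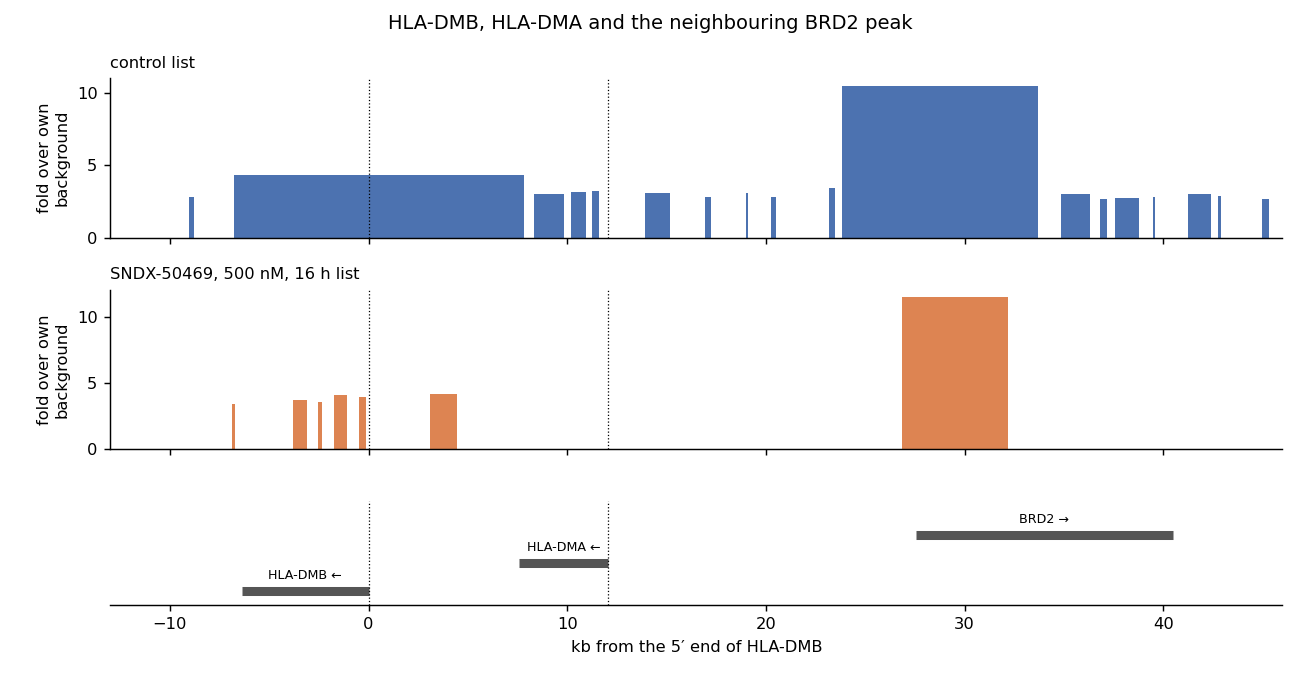
Peaks around HLA-DMB, HLA-DMA and BRD2 by distance from the 5′ end of HLA-DMB (kb), with height as fold over the background of the same library; the arrow after each gene name gives its strand, and dotted lines mark the 5′ ends of HLA-DMB and HLA-DMA. The 14594-bp control peak over HLA-DMB was replaced by 6 narrow SNDX-50469 peaks, no SNDX-50469 peak lay inside HLA-DMA, and the BRD2 peak stood at 10.5-fold in control.

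CD74 had no coverage left after SNDX-50469. The gene (chr5:150401639-150412910) had 7186 bp in 9 control peaks and 0 bp after SNDX-50469 (0 of 9 peaks kept, Wilson 95% interval 0 to 29.9%). The widest control peak (chr5:150410945-150414084), 3140 bp, lay across the 5′ end and all 12 annotated transcript starts, at 5.21-fold and rank 7724 of 245875. Of the 7724 control peaks at least as strong, 17.7% had no SNDX-50469 overlap, and of the 14322 at least as wide, 45.2% had none. The other CD74 peaks were 86 to 1191 bp wide, with 2 upstream of the promoter peak, and the strongest of them (chr5:150409860-150410408, 549 bp) stood at 4.71-fold. The nearest SNDX-50469 peak to the 5′ end was 35201 bp away. CD74 and 5 kb on both sides therefore went from 33.8% covered to none.

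The 5′ end lay in a control peak for 39% of the 19638 genes with a known strand, and in a SNDX-50469 peak for 17.3%. Of the members, HLA-DMB, CD74 and CIITA had it in a control peak and none in a SNDX-50469 peak. Among the 7655 genes with the 5′ end in a control peak, that peak had no SNDX-50469 overlap for 2572 (33.6%), CD74 among them.

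CIITA (chr16:10866206-10943021) had 40 control peaks over 45134 bp and 3 SNDX-50469 peaks over 1358 bp, all of it kept. In control, 2 wide peaks held 60.6% of the covered length. The first (chr16:10865853-10876940) was 11088 bp wide at 6.87-fold, rank 2552 of 245875, and it began just before the 5′ end. The second (chr16:10877273-10893545) was 16273 bp wide at 4.94-fold, rank 779 by width, and followed after a gap of 332 bp. The other 38 control peaks were 76 to 1875 bp wide.

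The 2 wide peaks differed after SNDX-50469. The first held all 3 SNDX-50469 peaks of the gene, which covered 12.2% of it, and the second held none. Of the 779 control peaks at least as wide as the second, 39 (5.01%) had no SNDX-50469 overlap, and of the 9358 at least as strong, 22.5% had none. The 3 SNDX-50469 peaks lay in introns, 3120, 5323 and 7280 bp from the 5′ end, and were 701, 373 and 284 bp wide. The middle one (chr16:10871529-10871901) was the strongest, at 4.89-fold and rank 2038 of 54061. The kept peaks of CIITA thus lay between its first and its later promoters.

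GENCODE places the starts of protein-coding CIITA transcripts in 3 groups, here given by order along the gene. In textbook terms these correspond by order to promoters I, III and IV, the myeloid, B cell and interferon gamma promoters, but the annotation does not name them. The first group, at chr16:10866222-10866260, has 2 starts, both in the first wide control peak, with 1505 of 2039 bp within 1 kb covered. The second group, at chr16:10877198-10877331, has 9 starts, including that of the reference (MANE) transcript. Only 1 of these 9 lay in a control peak, because the group sits at the gap between the 2 wide peaks, yet 1802 of 2134 bp within 1 kb were covered. The third group, at chr16:10878969, has 2 transcripts in the second wide peak, with 2001 of 2001 bp covered.

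After SNDX-50469 none of the 3 groups had a covered position within 1 kb, nor within 2 kb. The nearest SNDX-50469 peaks were 3066, 3429 and 5200 bp away. From the first start to 1 kb before the reference start, 100% of 9992 bp were covered in control and 13.6% were kept. From there to 20 kb after the reference start, 82.9% of 21001 bp were covered and none was kept. Over the rest of the gene and 5 kb after it, 29.3% of 50823 bp were covered, in 33 peaks, and none was kept.

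**Figure D3:**
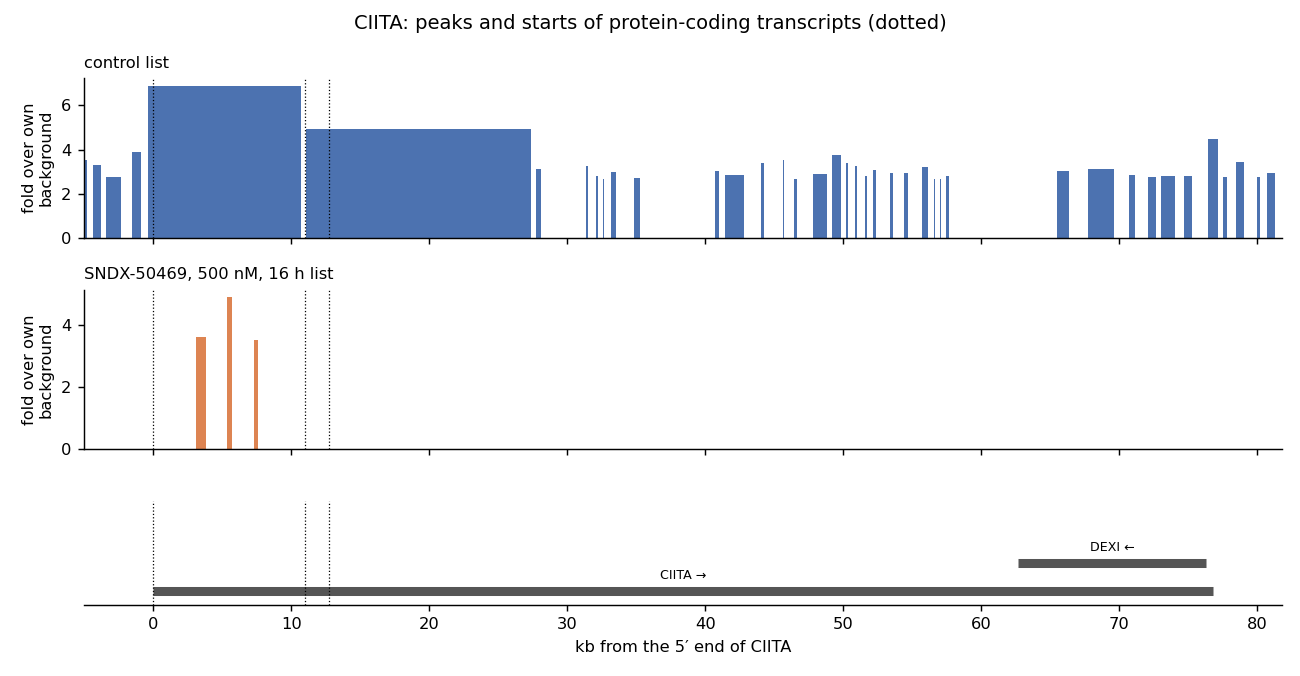
Peaks over CIITA with 5 kb on both sides by distance from its 5′ end (kb), with height as fold over the background of the same library; dotted lines mark the first start of each group of protein-coding transcripts. The wide control peaks of 11088 and 16273 bp covered the 3 groups of starts almost without a gap, and the 3 SNDX-50469 peaks lay between the first and the second group.

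CIITA stood at the edge of a long acetylated stretch. With peaks within 12.5 kb joined, it fell into a control region of 637.5 kb and 239 peaks, rank 36 of 24668 and above the point of slope 1. With peaks within 5 kb joined, the region was 77.361 kb, rank 881 of 45650, and still above it. In the SNDX-50469 list the 3 peaks formed a region of 4.444 kb, rank 4526 of 18541. CLEC16A, the next gene downstream, kept 2.57% of 155366 bp, and NUBP1 kept 1.97% of 13813 bp. DEXI (7786 bp in control), whose gene lies within the last part of CIITA and shares its peaks there, TVP23A (9055 bp) and SOCS1 (9895 bp), a feedback inhibitor of interferon signalling, kept none. All 5 of these neighbours were at least 10-fold shorter, beside 55.8% of all genes with at least 1 kb in control.

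CD74 fell into a control region of 344.44 kb, rank 518 of 24668 and above the point of slope 1, but with peaks within 5 kb joined its region was 18.554 kb, rank 5792 of 45650, and below it. No SNDX-50469 region at a member was above the point of slope 1, whether peaks within 5, 12.5 or 25 kb were joined. With 25 kb the region of the DM genes and BRD2 came close, at rank 223 of 13285 where 218 regions were above the point. Regions were ranked within each list by fold times length, summed over their peaks.

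Across the class II region, from 5 kb before HLA-DRA to 5 kb after HLA-DPB1 (chr6:32434887-33094696, 659.81 kb), the control list had 72 peaks with 59550 bp (9.03%), and the SNDX-50469 list had 22 with 13419 bp (2.03%). The kept share was 19.0%, beside 10.4% for chromosome 6. By peaks, 6 of 72 were kept (8.33%, Wilson 95% interval 3.88 to 17.0%), with no matching share over all control peaks given here. Of the 22 SNDX-50469 peaks, 10 lay outside any control peak, beside 49.2% of those on chromosome 6. The kept length was not spread evenly. BRD2 and its surroundings held 47.4% of it, the DM genes 29.7% and the stretch with TAP1, TAP2, PSMB8 and PSMB9 22.9%, and the remaining stretches held none.

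The region fell into acetylated and empty parts. From HLA-DRA to HLA-DQB1, 0.972% of 236.77 kb was covered in control. The longest stretch with no control peak was 114.71 kb and held HLA-DRB5 and HLA-DRB1, and the longest in the SNDX-50469 list was 160.33 kb. The DM genes with 5 kb on both sides were covered over 66.2% in control and 12.2% after SNDX-50469, the BRD2 part over 54.2% and 18.8%. The DP part was covered over 0.524% and 0.820%. The classical genes thus flank, on both sides, a covered centre made of the DM genes, BRD2 and the genes of class I peptide supply.

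**Figure D4:**
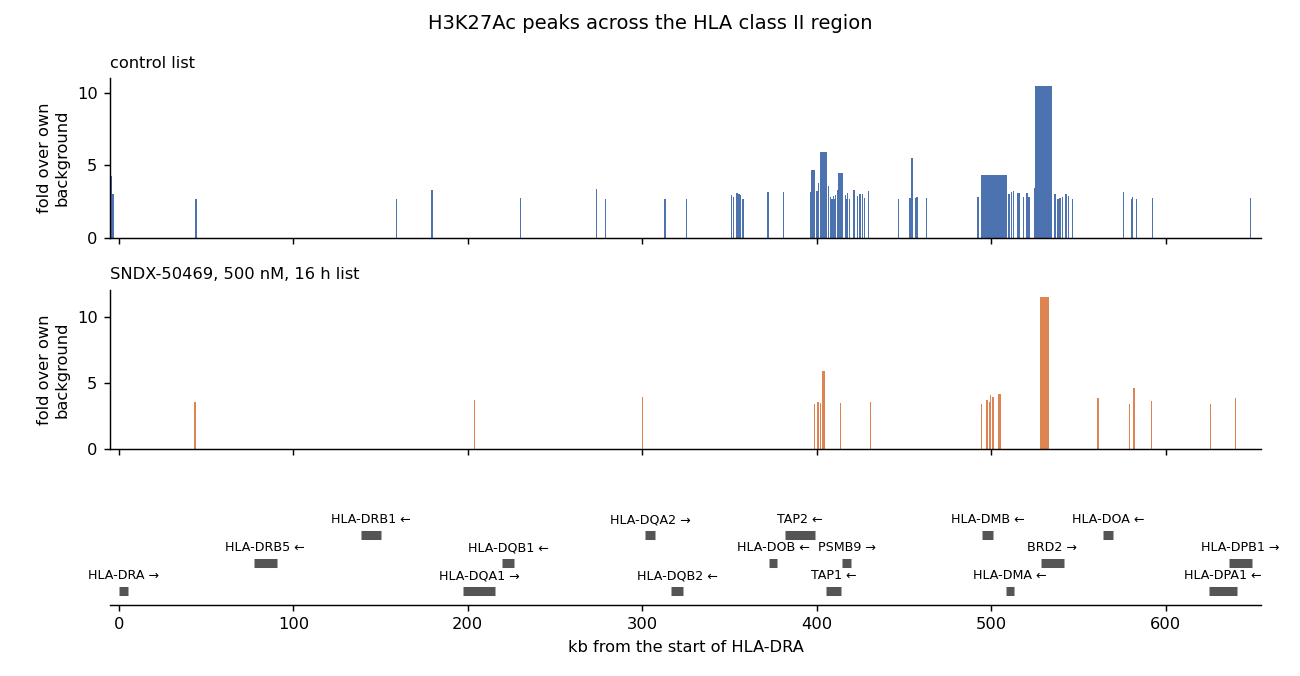
Peaks of each list across the class II region by distance from the start of HLA-DRA (kb), with height as fold over the background of the same library and narrow peaks drawn slightly wider than they are; the arrow after each gene name gives its strand. Control peaks cluster at TAP1, the DM genes and BRD2. SNDX-50469 peaks cluster beside TAP1, at PSMB8, and at the DM genes, and BRD2 has 1. The stretch with HLA-DRB5 and HLA-DRB1 has no control peak for 114.71 kb.

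The other class II genes resembled the classical chains. HLA-DQB2 had 418 bp and HLA-DOB 254 bp in control, and neither kept any. HLA-DQA2 had 295 bp and HLA-DOA 110 bp after SNDX-50469 with none in control, and HLA-DRB5 had 0 bp in both lists. HLA-DOA and HLA-DOB encode HLA-DO, which restrains HLA-DM. The neighbours that supply class I peptides differed from them. TAP1 and TAP2, the peptide transporter, kept 23.3% of 10454 bp and 20.0% of 5906 bp. PSMB8 kept 25.9% of 9057 bp and PSMB9 kept 4.58% of 5260 bp, both subunits of the immunoproteasome. The windows of TAP1, TAP2 and PSMB8 overlap and are not separate observations. A SNDX-50469 peak of 1923 bp, mostly inside PSMB8 (chr6:32842977-32844899), reached the windows of TAP1 and TAP2 through their flanks. Inside TAP1 and TAP2 themselves the SNDX-50469 peaks were 241 and 146 bp wide. BTNL2, at the HLA-DRA end, kept none of 700 bp.

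The factors that bind class II promoters had control peaks at 7 of 7 genes, while 22% of all genes had none. The covered lengths of the 7 genes were 2504 to 28513 bp in control, with a median kept share of 20.6%. Over all genes the median was 0% from 1 to 5 kb of control coverage, 8.39% from 5 to 20 kb and 6.94% above. NFYA kept 34.2% of 10444 bp, NFYB 30.3% of 3047 bp and CREB1 2740 of 9145 bp. RFX5 kept 4.46% of 6141 bp, RFXANK 20.6% of 13086 bp and NFYC 6.27% of 28513 bp, and RFXAP kept none of 2504 bp. Of these 7 genes, 2 were at least 10-fold shorter, beside 55.8% of all genes with at least 1 kb in control. The kept share varied with the length covered in control. Over all genes, the share of genes that kept nothing was 97.1% below 1 kb of control coverage, 60.9% from 1 to 5 kb, 26.0% from 5 to 20 kb and 9.27% above.

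From the interferon gamma receptor to CIITA, 10 of 10 genes had control peaks, 4 were at least 10-fold shorter and the median kept share was 11.8%. Among all genes, 22% had no control peak, and 55.8% of those with at least 1 kb in control were at least 10-fold shorter. IFNGR1, a chain of the receptor, kept 47.0% of 15674 bp, and SPI1, the myeloid factor PU.1, kept 39.1% of 28244 bp. IRF1, which acts at the interferon gamma promoter of CIITA, kept 3.77% of 15948 bp. IRF8 had the longest control coverage of these, 32913 bp, and kept 6.20%.

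Of the 7 genes that process antigen or CD74 for class II loading, 6 proteases and the thiol reductase IFI30, all had control peaks and 5 were at least 10-fold shorter, with a median kept share of 5.58%. Over all genes, 22% had no control peak. CTSB, cathepsin B, kept 24.2% of 32795 bp. CTSS, cathepsin S, which cuts CD74, kept 10.6% of 4884 bp. CTSL kept none of 2169 bp and LGMN, the asparaginyl endopeptidase, none of 6837 bp. The 3 genes of class II turnover were all at least 10-fold shorter, beside 55.8% of all genes with at least 1 kb in control. MARCHF1, a ligase that tags class II molecules for removal, kept 0.624% of 18111 bp, its relative MARCHF8 none of 13145 bp, and CD83, which opposes MARCHF1, 2.23% of 12477 bp.

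Beside the class I presentation genes the members had lower coverage in control. Of 13 class I genes, 11 had control peaks, with a median of 5906 bp and a summed kept share of 16.5%, against 7 of 10 members, a median of 913 bp and 8.04%. Over all genes, 22% had no control peak and the median control coverage was 3579 bp, so both counts of genes with peaks lie near that of all genes. PSMB8, PSMB9, TAP1 and TAP2 lie in the class II region and count among the 13, and their windows share peaks. Counting each position once gave kept shares of 15.8% for the class I genes and 6.44% for the members. HLA-B, a classical class I chain, kept none of 2235 bp, and HLA-C kept none of 2078 bp. B2M, the light chain of class I molecules, kept 37.5% of 8430 bp. NLRC5, the relative of CIITA that activates class I genes, kept 11.6% of 71124 bp, beside 3.01% of 45134 bp for CIITA. The 9 interferon regulatory factor genes had a summed kept share of 6.35% and a median of 8278 bp in control.

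**Figure D5:**
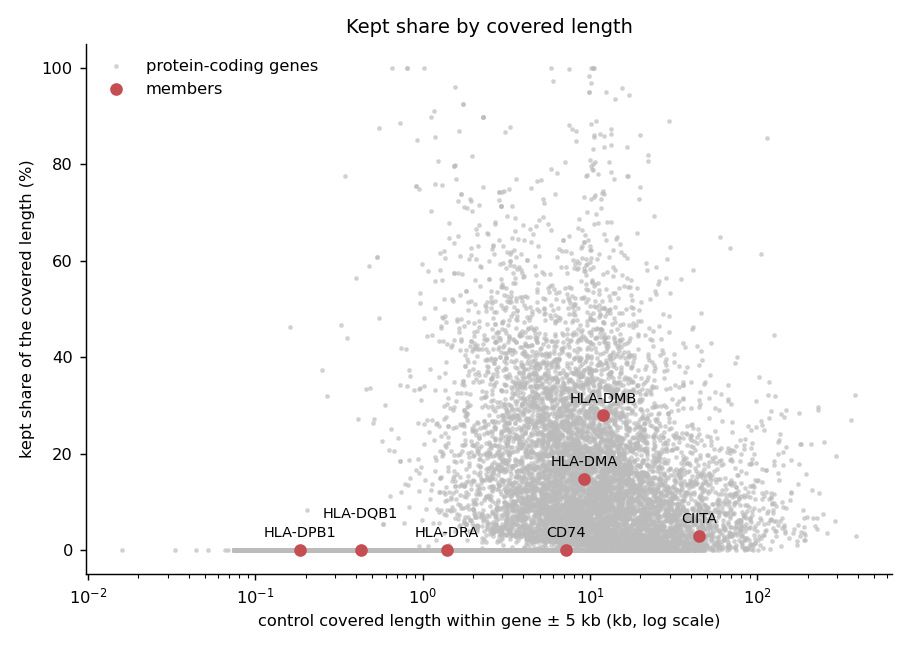
Kept share (%) against control covered length (kb, log scale) over each gene with 5 kb on both sides, for the 15634 genes that had any control coverage (grey) and the 7 members with one (red). HLA-DMB and HLA-DMA lie at 27.9% and 14.7%, CIITA at 3.01% with the longest coverage, and CD74, HLA-DRA, HLA-DQB1 and HLA-DPB1 at 0%.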

How the data were processed

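H3K27Ac ChIPmentation of MOLM13 cells gave 1 control and 1 SNDX-50469 library. Their 2 inputs were not analysed here. The submitters' processing notes name Trim Galore 0.6.5, Bowtie2 2.3.4.2, Picard 2.9.0, MACS2 2.1.2 and GRCh38, while the supplementary methods name TopHat2 and hg38; use of input in peak calling is not given in the sources used here. The authors deposited 1 broad peak list per library, and each deposited peak has a fold ratio over background, a −log10 p, a −log10 q and a score of 10 times the −log10 q, which was not used on its own. Background was recovered from the smallest fold and p of each list, and it is the only sign of depth.

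Covered and kept lengths were computed over each gene with 5 kb on both sides (RefSeq, GRCh38.p14) in Python 3.11.15 with numpy 2.4.6 and pandas 2.3.3, and interval steps were tested on simulated data. Control peaks were kept when at least 1 bp overlapped a SNDX-50469 peak. Transcript starts were the GRCh38 positions recorded in GENCODE release 44. Starts within 300 bp formed a group. The members and lists were chosen with earlier results of these data known. All 10 members were named, together with the extremes of each list, its genes with no control peak, and genes that share a peak with a member. Alternatives changed the flank, the cutoffs, the control list length and the counting unit.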

Additional observations from a re-analysis of the deposited data

How the results depend on the processing

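No paired analysis was possible because there was 1 library of each kind, and no value here has a replicate check. The kept share of the members together was 8.04%. A setting was called close when it moved this share by at most 5.90 points. That margin was taken from the width of a Wilson 95% interval for kept peaks, with shared peaks counted for each gene. Under the close settings the kept share lay between 3.33% and 12.2%, and it was 2.50% without HLA-DMA and HLA-DMB (chosen after seeing the data). The 12.2% came from the control list trimmed to the covered length of the SNDX-50469 list. There the members had 11088 bp in control, and the genome kept 38.9%. With the control list ended at the lowest −log10 p found after SNDX-50469, the members kept 11.4% and the genome 15.5%. With control pileups lowered to the SNDX-50469 background (chosen after seeing the data) these shares were 12.1% and 18.5%. In the main setting they were 8.04% and 9.71%. The kept share of the members moved by more than the margin of 5.90 points under 3 settings. It was 0% with a −log10 q of at least 5 in both lists, 0% when a control peak had to be covered over most of its length (50% or more), and 15.5% without CIITA (chosen after seeing the data). The kept share of the class II region (19.0%) was 46.5% with a −log10 q of at least 5, 30.9% with the control list ended at the lowest −log10 p found after SNDX-50469, and 31.3% with control pileups lowered to the SNDX-50469 background (chosen after seeing the data), where the whole genome kept 6.47%, 15.5% and 18.5%. With the control list trimmed to the covered length of the SNDX-50469 list, where the genome kept 38.9%, the region had less coverage in control (9875 bp) than after SNDX-50469 (13419 bp) and kept 54.2%; that control list held 3632 peaks, and in the region the BRD2 peak alone. Without the BRD2 part (chosen after seeing the data) the region kept 13.4%. The CIITA starts kept 0% within 500 bp, 1 kb and 2 kb. CD74 kept 0% under each setting that left it a control peak. HLA-DMA (14.7%) kept 0% within the gene alone, 27.9% with flanks of 25 kb and 26.1% with a −log10 q of at least 2, with a Wilson 95% interval of 3.01 to 56.4% for its kept peaks. HLA-DMB (27.9%) lay between 16.1% and 29.8%, and CIITA (3.01%) between 0% and 12.2%, the latter in the trimmed list. HLA-DRA, HLA-DQB1 and HLA-DPB1 kept 0% wherever they had a control peak. HLA-DRB1, HLA-DQA1 and HLA-DPA1 have no control coverage and so no kept share. Limits are the unequal ends of the lists, the unknown depth, and wide peaks that join separate sites.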
